A study of Mus musculus with 20 samples.

Results

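The mitochondrial protein import machinery was read as mRNA in pancreatic islets of mice that lack Mfn1, Mfn2 or both mitofusins in β-cells. Its members were all protein-coding genes whose symbol begins with Tomm or Timm, together with Pam16, Dnajc15, Dnajc19, Grpel1, Grpel2, Chchd4, Gfer and Oxa1l. The annotation holds 34 such genes, and 33 of them were among the 28632 genes of the count table. Tomm20l was the member without a row. The choice of members used no measured value.

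The RNAseq came from 20 libraries of 12-week-old mice of both sexes, made from islets kept in culture for 24 hours after collagenase digestion. Ctrl (n = 6) comprised wild-type animals by the labels, whereas the methods pool mice that carry Ins1-Cre alone with mice that carry floxed alleles alone. Mfn1KO (n = 4) and Mfn2KO (n = 5) carried Ins1-Cre with the floxed alleles of Mfn1 or of Mfn2, and Mfn1/2DKO (n = 5) carried Ins1-Cre with both. Which Ctrl libraries carry Ins1-Cre is not labelled. Against Ctrl libraries without it, the Cre allele and the deletions cannot be told apart. Ins1-Cre acts in β-cells, and the α-, δ- and other cells of the islet keep both genes, so each library mixes deleted and intact cells. With bulk RNA, fewer cells of a type and less RNA per cell cannot be told apart. The study's figures give these n as mice, whereas the labels do not tie each library to 1 mouse, so p-values measure the spread between libraries, which may be technical.

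Nearly all mitochondrial proteins are made in the cytosol and carried across 1 or both membranes. The TOM complex of the outer membrane recognizes precursors through its receptors (Tomm20, Tomm22, Tomm70a) and passes them through the Tomm40 pore. From there the TIM23 complex and its ATP-driven motor pull precursors with a cleavable presequence into the matrix, the small TIM chaperones escort carrier proteins to the TIM22 complex, and the Chchd4-Gfer relay traps small proteins by oxidizing their cysteines. Oxa1l inserts proteins into the inner membrane from the matrix side, including those encoded by mtDNA. β-cells depend on mitochondrial ATP to couple glucose to insulin release.

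Depth differed with genotype. Total counts ran from 12400687 to 20329064 in Ctrl, from 15745680 to 16685381 in Mfn1KO, from 15110046 to 59533407 in Mfn2KO and from 65533388 to 122947313 in Mfn1/2DKO. Mfn2KO replicates 4 and 5, with 55962873 and 59533407 counts, were deep like the Mfn1/2DKO libraries (above 40 M counts) and the other 3 were shallow, so depth and the double knockout cannot be told apart against Ctrl and can only in part against Mfn2KO. Mean normalized counts (TMM-scaled to the mean library size) of Mfn1 were 1670.2 in Ctrl, 674 in Mfn1KO and 797 in Mfn1/2DKO, and those of Mfn2 were 3505 in Ctrl, 1577 in Mfn2KO and 2084 in Mfn1/2DKO. All 8 β-cell markers were lower in Mfn1/2DKO than in Ctrl (median log2 fold change −1.20) and all 8 acinar markers were higher (3.75). Also higher were 3 of 3 endothelial, 1 of 3 duct and 1 of 4 stellate and fibroblast markers, whereas 0 α-, δ-, PP-cell or macrophage markers changed. In each single knockout 1 of the 8 β-cell markers was lower. Ins1, the β-cell marker gene that holds the Cre knock-in, ran from 1065900 to 1962300 normalized counts in Ctrl. It ran from 658270 to 960920 in Mfn1KO, from 650440 to 844700 in Mfn2KO and from 202300 to 265790 in Mfn1/2DKO. The summed acinar markers stood at 873620 and 2241200 normalized counts in Mfn1/2DKO replicates 4 and 5 and at 379670 in Mfn2KO replicate 4, against 14101 to 98168 in Ctrl and 22436 to 37098 in the other 3 Mfn1/2DKO libraries. With an acinar score as a covariate Grpel1 was the single call lost among the members that changed, and the part of the fewer β-cell transcripts in the results was not tested.

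The promoters of the members were searched for the recognition motifs of factors that are known to act on mitochondrial or stress-response genes. Promoter sequence was listed for 30 of the 34 members (RefSeq, GRCm38.p6, from 250 bases before to 50 bases after the start) among 32851 promoters in all, and both strands were read. The ETS family motif CCGGAAGT lay in 7 of the 30 members (23.3%), against 3.89% of all promoters. These were Timm10, Timm10b, Timm23, Timm29, Timm8a2, Timmdc1 and Tomm70a. CGCATGCG, the core of the NRF1 motif, lay in Timm13 (1.87% of all promoters), AAGATGGC, a YY1 motif, in Oxa1l and Timm50 (2.75%), and TGACGTCA, the cyclic AMP response element, in Oxa1l (1.79%). TGATGNAA, an ATF4 motif, was in none of the 30 (3.97% of all). In Oxa1l the 2 motifs lie apart, at bases −89 to −82 and 11 to 18 from the start. The motifs were chosen after the fold changes were known, and a match is a description of the letters in this window and not a measured binding site. The stretches below, 5′ to 3′ on the strand of the gene and outside annotated exons, show the single response element of Oxa1l, an mRNA that rose in Mfn1/2DKO, and the ETS motif of a receptor and a channel gene that did not pass the test. Capitals mark the motif, or its reverse complement in Timm23.
Oxa1l, chr14:54360716-54360795, plus strand: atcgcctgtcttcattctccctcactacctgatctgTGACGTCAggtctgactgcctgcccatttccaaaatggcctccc
Tomm70a, chr16:57121598-57121677, plus strand: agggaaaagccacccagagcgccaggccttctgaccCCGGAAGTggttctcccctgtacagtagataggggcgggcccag
Timm23, chr14:32201899-32201948, minus strand: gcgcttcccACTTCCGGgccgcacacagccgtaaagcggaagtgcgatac

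Members differed in level by a 20.8-fold range in Ctrl, as normalized counts per kilobase of the annotated transcript chosen for each gene. Which transcripts the islets express was not tested, so the order of levels rests on the chosen lengths. Of the 33 members, 32 passed the low-count filter, and Timm8a2, a further Timm8 gene, did not, with between 0 and 4 raw counts per library. The highest levels belonged to Timm8b (2728 per kilobase), Tomm6 (2709.9) and the channel subunit Timm23 (2487), and the lowest to Timm8a1 (149) and Dnajc15 (131). Among the 31 pairs of neighbours in this order, the ranges of the 6 Ctrl libraries overlapped in 27, so that only the steps below Timm23, Timm13, Timmdc1 and Timm17a were separate. The members were steady between Ctrl libraries, with a median coefficient of variation of 7.62% (from 2.69% to 17.0%).

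In Mfn1/2DKO 9 members were higher and 3 lower than in Ctrl, and 21 of the 33 tested did not pass (edgeR, adjusted p under 0.05 over all genes). Gfer, Timm10, Tomm34, Grpel2, Timm50, Timm44, Oxa1l, Grpel1 and Tomm20 rose, and Timm29, Timm10b and Timm17a fell. The share of all genes called higher was 9.59% and lower 6.86%. All but 1 member passed the low-count filter. In a separate fit of the 15267 genes that pass it, the shares were 18.6% higher and 16.6% lower. The members' calls come from the unfiltered fit, and the count of lower members did not exceed the latter share. With total-count scaling, which moves the median of all genes from 0.04 to 0.17, the counts were 17 higher and 1 lower (18.8% and 3.31% of all genes), and with depth class (above 40 M counts) as a covariate 0 of the 12 passed while all 12 kept their direction (1.48% of all genes were then higher and 1.06% lower). In that fit the values of Tomm34 (0.35), Oxa1l (0.30), Timm10b (−0.35) and Timm17a (−0.21) were no nearer to 0 than without the covariate, with larger standard errors, and those of the other 8 were nearer. Only Gfer passed a fold change of 1.5 as well (5.21% of all genes). The median log2 fold change over the 32 members was 0.10, beside 0.04 over all genes that pass the filter, and 22 of the 32 values (68.8%) were above 0, beside 55.8% of all genes. With depth class as a covariate this lean was reversed. The median over the members was then −0.06, beside 0.02 over all genes that pass the filter, and 12 of the 32 values were above 0. For 29 members the 95% interval of the log2 fold change lay within 1.5-fold either way, the exceptions being Gfer, Timm10 and Timm8a1.

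**Figure D1:**
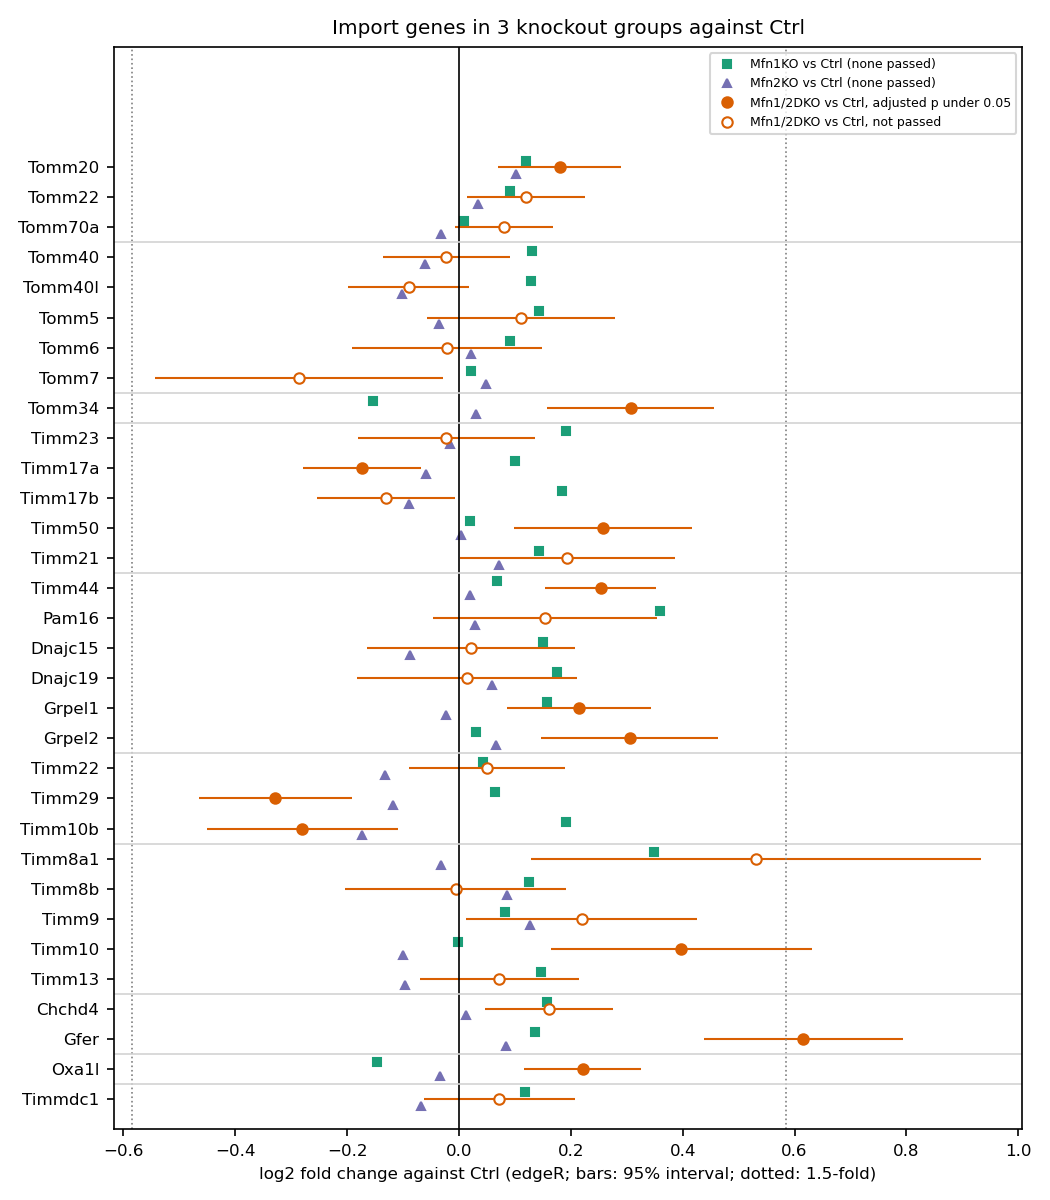
Each row is 1 of the 32 import genes that pass the low-count filter, grouped by role, and the horizontal axis is the log2 fold change against Ctrl. Orange circles with 95% intervals stand for Mfn1/2DKO, filled where the adjusted p was under 0.05 (12 genes), green squares for Mfn1KO and purple triangles for Mfn2KO. Gfer is the only gene whose filled circle lies past the dotted line at 1.5-fold, and 29 of the 32 green squares lie right of 0.

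Within the disulfide relay, Gfer, the sulfhydryl oxidase that reoxidizes Chchd4, gave the largest rise of any member. Its normalized counts were 787, 805, 773, 933 and 1017 in Mfn1/2DKO, and they ran from 512 to 592 with a median of 565 in Ctrl. Every Mfn1/2DKO library lay above every Ctrl library, and the highest counts were those of replicates 4 and 5, the libraries with the most acinar RNA. Gfer rose by 0.62 on the log2 scale (SE 0.09, adjusted p = 2.31e-05), and by 0.51 (adjusted p = 0.000392) with replicates 4 and 5 left out. Leaving out these 2 libraries ended the calls of Timm10, Grpel1, Grpel2, Timm10b and Timm17a, and kept those of the other 7 changed members, while Chchd4 gained one. Gfer shares 17.9% of its 75-base stretches with Dst, a far more abundant mRNA, which differed by −0.12 (adjusted p = 0.422). Chchd4, the oxidoreductase that traps incoming proteins, was at 1415, 1469, 1398, 1366 and 1238 in Mfn1/2DKO against 1137 to 1352 (median 1224) in Ctrl. The ranges overlapped through replicate 5, and the log2 fold change of 0.16 (95% interval 0.05 to 0.28) missed the threshold at an adjusted p of 0.0508. Chchd4 passed at 0.23 (adjusted p = 0.012) without replicates 4 and 5 and at 0.19 (adjusted p = 0.0298) with the acinar score as a covariate.

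Among the small TIM chaperones, which form rings of Timm9 with Timm10 or of Timm8 with Timm13, Timm10 rose. It stood at 447, 512, 445, 512 and 578 in Mfn1/2DKO and from 324 to 455 (median 369.5) in Ctrl, and 3 of the 5 knockout libraries were above all Ctrl libraries. The rise was 0.40 (SE 0.11, adjusted p = 0.0161), and it did not pass without replicate 5 alone. Its ring partner Timm9 differed by 0.22 (95% interval 0.01 to 0.43, adjusted p = 0.15). Timm13 and Timm8b differed by 0.07 and −0.01 and did not pass. Timm8a1, the X-linked partner of Timm13, was at 279.5, 315, 267, 367 and 303 in Mfn1/2DKO, above every Ctrl library (147 to 258, median 215). With a log2 fold change of 0.53 (SE 0.19) its adjusted p was 0.066 in edgeR, and 0.0437 in DESeq2.

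**Figure D2:**
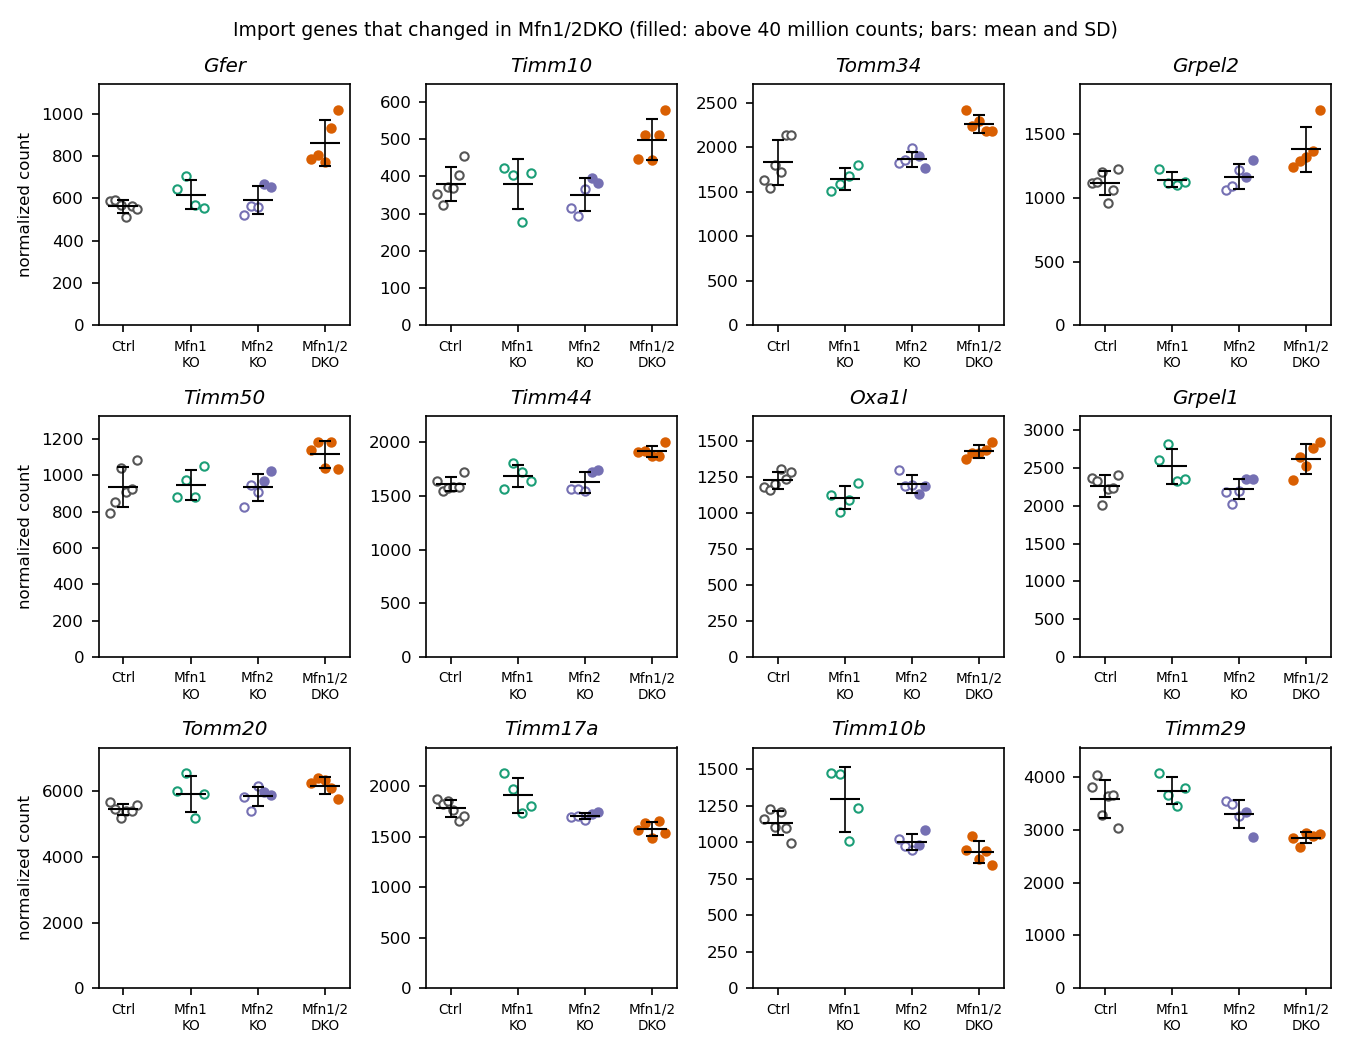
Each panel shows 1 of the 12 import genes that changed in Mfn1/2DKO, with normalized counts on an axis from 0 and 1 point per library. Filled points are libraries above 40 M counts, and bars are the mean and SD of each group (n = 6, 4, 5 and 5). The Mfn1/2DKO points of Gfer lie between 773 and 1017 and those of Ctrl between 512 and 592, whereas in Timm50 and Timm10b the groups overlap.

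The import motor, which sits on the matrix side of TIM23 and is powered by the chaperone Hspa9, had 3 of 6 members higher and none lower. Timm44, the tether of the motor at the channel, stood at 1908, 1919.9, 1877, 1873 and 2005 in Mfn1/2DKO against 1548 to 1728 (median 1581) in Ctrl. The groups did not overlap, and Timm44 rose by 0.25 (SE 0.05, adjusted p = 0.000584). Grpel1 and Grpel2 are nucleotide exchange factors that reset Hspa9. Grpel2 stood at 1239, 1288, 1321, 1369 and 1687 against 961 to 1229.7 (median 1123), again with no overlap, and rose by 0.31 (SE 0.08, adjusted p = 0.00698). Grpel1, the more abundant copy, stood at 2344, 2652, 2524, 2763 and 2849.7 against 2006 to 2416 (median 2282). Its lowest knockout library lay within the Ctrl range, and it rose by 0.21 (SE 0.06, adjusted p = 0.0189). Both exchange factors were highest in replicate 5. The J proteins that stimulate Hspa9 or hold back that stimulation did not pass, with log2 fold changes of 0.02 (Dnajc15), 0.01 (Dnajc19) and 0.15 (Pam16), adjusted p from 0.337 to 0.952.

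The TIM23 channel itself showed values on both sides of 0. Timm50, the receptor that hands precursors from TOM to the channel, stood at 1136, 1184, 1041, 1183 and 1035 in Mfn1/2DKO against 794 to 1083 (median 918) in Ctrl. In the knockout 2 libraries lay within the Ctrl range, and Timm50 rose by 0.26 (SE 0.08, adjusted p = 0.0223), a call that did not pass without Ctrl replicate 1 or 2. Timm17a, a channel subunit whose protein is known to be turned over quickly under stress, fell by 0.17 on the log2 scale (SE 0.05, adjusted p = 0.0203). It stood at 1569, 1639, 1486, 1652 and 1541 against 1658 to 1869.5 (median 1794), below every Ctrl library by a narrow margin, and did not pass without Mfn1/2DKO replicate 1 or 3. Its X-linked paralogue Timm17b had a log2 fold change of −0.13 (95% interval −0.25 to −0.01, adjusted p = 0.157) in edgeR. In DESeq2 Timm17b passed, at −0.16 (adjusted p = 0.0287). The central pore subunit Timm23 differed by −0.02 (95% interval −0.18 to 0.14) and Timm21 by 0.19 (adjusted p = 0.177).

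In the TOM complex, Tomm20 was the single member of 8 that passed, beside 18.6% of filtered genes higher and 16.6% lower. This presequence receptor stood at 6245, 6389, 6328, 6092 and 5763 in Mfn1/2DKO against 5163 to 5661 (median 5423) in Ctrl, with no overlap, and rose by 0.18 (SE 0.05, adjusted p = 0.0213). The other receptors Tomm22 and Tomm70a differed by 0.12 and 0.08. For the pore gene Tomm40 the difference was −0.02 (95% interval −0.14 to 0.09) and for its paralogue Tomm40l −0.09 (−0.20 to 0.02). The small subunits Tomm5 and Tomm6 differed by 0.11 and −0.02. Tomm7, a small subunit that steadies the complex and is needed to hold Pink1 at the outer membrane, stood at 918, 1099, 933, 958 and 817 against 977 to 1336 (median 1164), and its log2 fold change of −0.29 (95% interval −0.54 to −0.03) had an adjusted p of 0.131. Tomm34, a cytosolic co-chaperone of precursors rather than a part of the complex, rose by 0.31 (SE 0.07, adjusted p = 0.00431), from 1542 to 2145 (median 1764) in Ctrl to 2418, 2241, 2294, 2185 and 2182.

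The TIM22 complex, which inserts carrier proteins into the inner membrane, held 2 of the 3 members that fell. Among genes that pass the low-count filter 16.6% were lower. Timm29, a subunit of the complex found in animals and not in yeast, stood at 2835, 2668, 2930.3, 2890.4 and 2922 in Mfn1/2DKO against 3042 to 4036 (median 3650.5) in Ctrl. No library overlapped, and Timm29 fell by 0.33 on the log2 scale (SE 0.07, adjusted p = 0.00115). Timm10b, which docks the small TIM rings on the complex, stood at 949, 1044, 886, 943 and 847 against 999 to 1231 (median 1132) and fell by 0.28 (SE 0.08, adjusted p = 0.0204), without passing when Ctrl replicate 2 or any of Mfn1/2DKO replicates 3, 4 and 5 was left out. Timm22, the pore of the complex, differed by 0.05 (95% interval −0.09 to 0.19). Timm29 overlaps Yipf2 on the opposite strand by 107 bases, and Timm10b overlaps Arfip2 on the opposite strand by 361 bases. Yipf2 had 111% and Arfip2 389.9% of the counts of the member they overlap, and both fell in Mfn1/2DKO, with log2 fold changes of −0.74 (adjusted p = 6.98e-06) and −0.33 (adjusted p = 0.00406). Gm45799, which overlaps Timm10b on the same strand by 3086 bases, fell by 0.89 (adjusted p = 0.00497) and had 12.8% of the counts of Timm10b. The share of stretches held in common, read as for Gfer above, was 1.07% for Timm29 with Yipf2. It was 4.78% for Timm10b with Arfip2 and 8.87% for Timm10b with Gm45799. No source used here says whether the counting used strand. How far reads of these neighbours enter the values of Timm29 and Timm10b was not tested.

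Oxa1l, the insertase whose promoter stretch is shown above, stood at 1373, 1416, 1417, 1439 and 1493 in Mfn1/2DKO and from 1157 to 1301 (median 1215) in Ctrl. Each knockout library was higher than each Ctrl library, and Oxa1l rose by 0.22 (SE 0.05, adjusted p = 0.00355). Timmdc1, a complex I assembly factor that bears a Timm name by sequence, differed by 0.07 (adjusted p = 0.534).

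Genes on the opposite strand also overlap members that rose or did not pass. Tomm34 overlaps Stk4, which had a mean raw count of 2098 beside 2098 for Tomm34 and rose by 0.15 (adjusted p = 0.0374). The 2 genes overlap by 848 bases, and Tomm34 shares 0% of its 75-base stretches with any other gene. Oxa1l overlaps Slc7a7, which had 8.89% of its counts and a log2 fold change of 0.54 (adjusted p = 0.093). Grpel1 overlaps Tada2b, which had 69.5% of its counts and differed by 0.04. Pam16 overlaps Glis2, at 113% of its counts and higher by 0.30 (adjusted p = 0.000668), and Dnajc19 overlaps Fxr1, which differed by 0.12 (adjusted p = 0.17). The share of 75-base stretches held in common was 15.2% for Pam16 with Glis2 and 9.76% for Grpel1 with Tada2b. It was 3.49% for Oxa1l with Slc7a7 and 0.83% for Dnajc19 with Fxr1. Gfer, Timm10, Grpel2, Timm50, Timm44, Tomm20 and Timm17a had no overlapping gene with counts above 1% of their own. The levels of Tomm6, Tomm40l and Timm23 are uncertain in that they share 65.5%, 52.0% and 50.5% of their 75-base stretches with Gm21981, Nr1i3 and Gm10273, genes with mean raw counts of 120.1, 3.1 and 0.

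**Figure D3:**
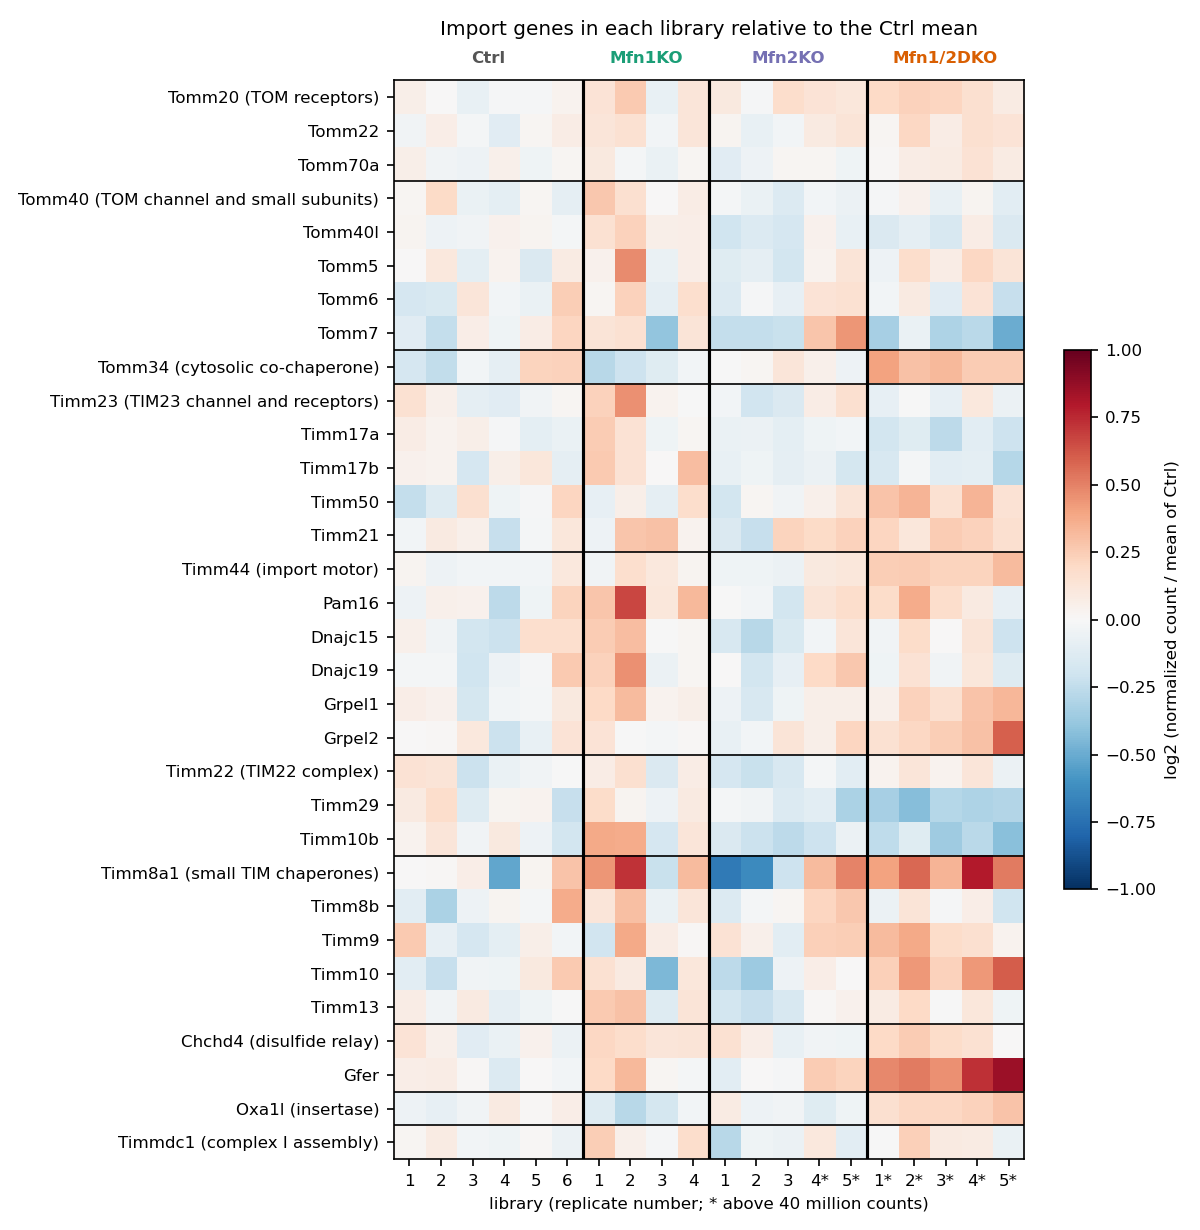
Each column is 1 of the 20 libraries, each row 1 of 32 import genes grouped by role, and the color is the log2 ratio of the normalized count to the Ctrl mean (blue lower, red higher). An asterisk marks libraries above 40 M counts. Gfer, Tomm34, Timm44 and Oxa1l are red in all 5 Mfn1/2DKO columns, Timm29 and Timm17a are blue in all 5, and Mfn1KO replicate 2 holds the highest value of its group in 18 rows.

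In 9 members the Mfn1/2DKO and Ctrl libraries did not overlap. Tomm20, Tomm34, Timm44, Grpel2, Timm8a1, Gfer and Oxa1l were wholly higher (7 of 32, beside 10.5% of genes that pass the filter) and Timm17a and Timm29 wholly lower (2 of 32, beside 7.33%). The directions of all 12 changed members were the same in males and in females fitted alone. The 12 were picked in a fit of these same libraries, so the shared direction is in part set by that choice. In males (3 against 3 libraries) Gfer, Grpel2 and Grpel1 passed, where 6.70% of all genes did, and in females (2 against 3) Tomm34, Timm50, Timm44, Timm29, Timm10 and Gfer passed, where 12.0% did.

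No member passed the test in either single knockout. In Mfn2KO against Ctrl, 0 of 33 members passed in edgeR (0.0559% of all genes did), 0 had an unadjusted p under 0.05 (4.22% of all genes), and DESeq2 called 0, with 1 at an unadjusted p under 0.05 (3.28% of all genes). The median log2 fold change over 32 members was −0.02 (all genes 0.01), single values ran from −0.17 (Timm10b) to 0.13 (Timm9), and all 32 intervals lay within 1.5-fold. In Mfn1KO, edgeR and DESeq2 called 0 members (0.0279% of all genes were called in edgeR), with 10 at an unadjusted p under 0.05 in each (7.44% and 6.37% of all genes). In edgeR 9 of those 10 were higher. The values of Mfn1KO leaned to one side: 29 of 32 members (90.6%) lay above 0, beside 50.5% of all genes, with a median log2 fold change of 0.12, beside 0.00. The largest were Pam16 (0.36, adjusted p = 0.514) and Timm8a1 (0.35, adjusted p = 0.732), and the 3 below 0 were Tomm34 (−0.15), Oxa1l (−0.15) and Timm10 (under 0 by less than the rounding). Replicate 2 held the highest count of its group in 18 of the 32 members and replicate 3 the lowest in 25. Without replicate 2 the median was 0.07 and 27 members were above 0, and without replicate 3 these were 0.16 and 30.

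Set against Mfn2KO, Mfn1/2DKO had 9 members changed, 8 higher and 1 lower (13.0% of all genes changed). In a separate fit of the 15267 genes that pass the low-count filter, 2240 were higher and 2132 lower. The 9 members together did not exceed that share. The comparison with Mfn2KO asks what losing Mfn1 adds once Mfn2 is gone, and it shares the Mfn1/2DKO libraries with the comparison above. Gfer rose by 0.53 (SE 0.09, adjusted p = 0.000251), Timm10 by 0.50 (SE 0.12), Tomm34 by 0.28, Timm50 and Oxa1l by 0.25, Grpel1 and Grpel2 by 0.24 and Timm44 by 0.23. Timm29 fell by 0.21 on the log2 scale (adjusted p = 0.046). Tomm20, at 5823, 5383, 6143, 5975 and 5874 in Mfn2KO, differed by 0.08 (adjusted p = 0.415), and Timm17a and Timm10b by −0.12 and −0.11 (adjusted p of 0.167 and 0.471).

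Mfn2KO replicates 4 and 5, the deep libraries, stood apart from the other 3 in many members. In 20 of the 32 members (62.5%) both deep libraries were above all 3 shallow ones, and in 0 both were below; the shares over all genes that pass the filter were 15.8% and 14.2%. Gfer stood at 669 and 656 in the deep libraries and at 522, 563 and 557 in the shallow ones. Timm8a1 stood at 264 and 298 against 129.8, 136 and 183, and Tomm7 at 1396 and 1563 against 979, 976 and 991. Oxa1l, at 1128 and 1187 against 1298, 1186 and 1195, was not higher in the deep libraries, and neither was Tomm34, at 1902 and 1773 against 1825, 1854 and 1995. The deep libraries were both male, as was 1 shallow library.

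Against the 2 deep Mfn2KO libraries alone, which are nearer in depth though every Mfn1/2DKO library is deeper, 3 members passed (5.56% of all genes did). Both comparators stand apart in other cells, replicate 4 in its acinar sum given above and replicate 5 in its stellate and fibroblast sum of 13119 normalized counts, against 852 to 2915 in the other Mfn2KO libraries, and the part of these cells was not tested. Oxa1l was higher by 0.32 (SE 0.07, adjusted p = 0.0103) and Gfer by 0.40 (SE 0.11, adjusted p = 0.0397). Tomm7 was lower, at −0.63 (SE 0.13, adjusted p = 0.00471). Timm10 (0.38, adjusted p = 0.164), Tomm34 (0.32, adjusted p = 0.0875), Grpel2 (0.18), Timm50 (0.18), Grpel1 (0.17), Timm44 (0.16) and Tomm20 (0.07) kept values above 0 and did not pass with 2 libraries in the smaller group. Timm29 was at −0.10, Timm10b at −0.13 and Timm17a at −0.12, all without passing. With depth class as a term in the fit over all groups, the 5 Mfn2KO libraries alone separate depth from genotype. In that fit 0 members were higher and 1 was lower in Mfn1/2DKO against Ctrl (1.48% and 1.06% of all genes). The lower one was Tomm7 (−0.88, SE 0.17, adjusted p = 0.00498). Gfer was then at 0.34 (adjusted p = 0.263) and Oxa1l at 0.30 (adjusted p = 0.0882).

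**Figure D4:**
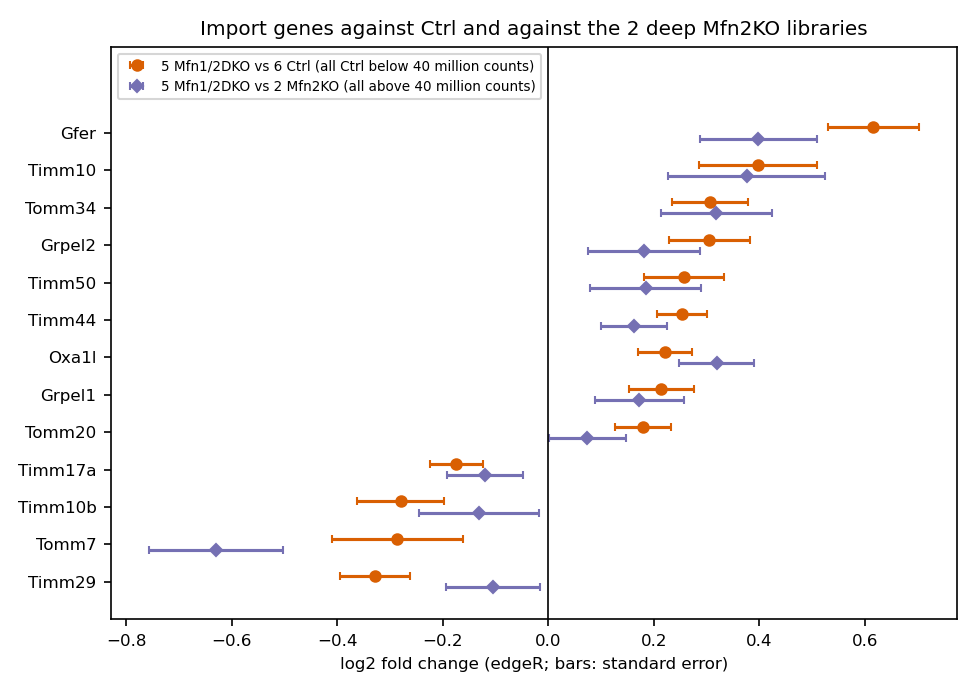
The horizontal axis is the log2 fold change with its standard error for the 12 import genes that changed in Mfn1/2DKO against Ctrl, and for Tomm7. Orange circles compare 5 Mfn1/2DKO with 6 Ctrl libraries, and purple diamonds compare the same 5 with the 2 Mfn2KO libraries above 40 M counts. Both marks lie on the same side of 0 for each gene; Tomm7 is farther from 0 against the deep Mfn2KO libraries (−0.63 against −0.29) and Timm29 nearer (−0.10 against −0.33).

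The effect of Mfn1 loss differed with the presence of Mfn2 for 2 members, Oxa1l and Tomm34 (interaction term in edgeR, 5.92% of all genes). That count is near the share over all genes. In a separate fit of the 15267 genes that pass the low-count filter, 1092 were higher and 1257 lower, a larger share than among the members. Oxa1l stood at 1122, 1009, 1088 and 1206 in Mfn1KO, mostly below Ctrl, and above all other libraries in Mfn1/2DKO. Its change with Mfn1 loss was −0.15 with Mfn2 present and 0.25 with Mfn2 absent, and the difference of 0.40 (SE 0.08) had an adjusted p of 0.0027. Tomm34 stood at 1510.2, 1586, 1681 and 1799 in Mfn1KO. Its change was −0.15 with Mfn2 present and 0.28 with Mfn2 absent, a difference of 0.43 (SE 0.11, adjusted p = 0.0192). With depth class in the fit the interaction was 0.45 for Oxa1l (adjusted p = 0.00666) and 0.46 for Tomm34, which no longer passed (adjusted p = 0.0569), and Tomm7 passed at −0.67 (adjusted p = 0.0213).

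Paralogue pairs were compared by the log2 ratio of their raw counts in each library, in which the scaling cancels. Of 5 pairs, Timm8a1 to Timm8b differed between Mfn1/2DKO and Ctrl. The log2 ratio was −2.28, −2.30, −2.39, −2.01 and −2.03 in Mfn1/2DKO and ran from −3.29 to −2.41 in Ctrl, with no overlap. The means were −2.20 ± 0.17 (SD, n = 5) and −2.75 ± 0.30 (SD, n = 6), and the difference of 0.54 had an exact permutation p of 0.00433 (two-sided, 462 arrangements) and 0.0216 after adjustment over the 5 pairs. In Mfn2KO the ratio was −3.31, −3.36 and −2.97 in the shallow libraries and −2.64 and −2.51 in the deep ones, so it was higher where depth was higher within 1 genotype too. Against the 2 deep libraries the difference was 0.37 (exact p = 0.0952, adjusted 0.238; the smallest p this design allows is 0.0476). Without Mfn1/2DKO replicate 4 or replicate 5 it was 0.50, with an adjusted p of 0.0714. Timm8a1 shares 39.9% of its 75-base stretches with Gm9797, a gene with a mean of 94.2 raw counts, which differed by 0.26 (adjusted p = 0.565).

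**Figure D5:**
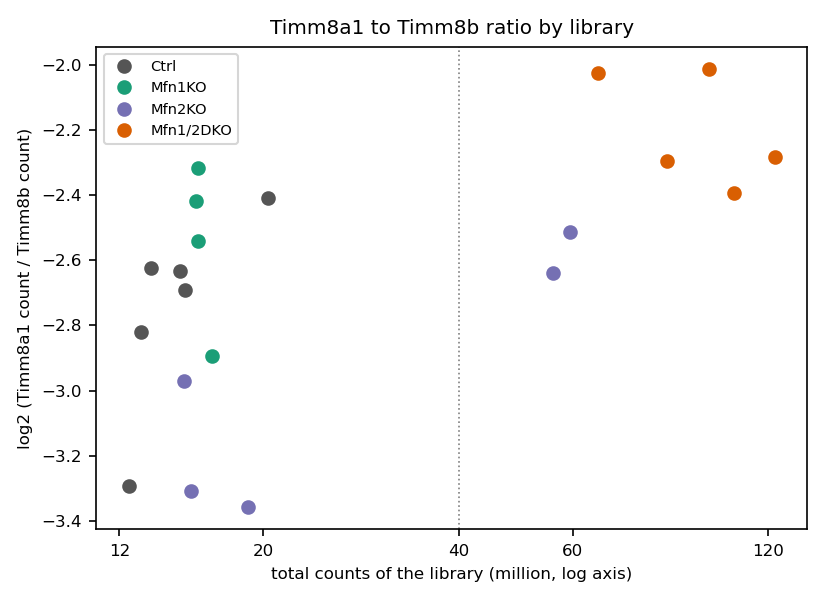
The vertical axis is the log2 ratio of Timm8a1 to Timm8b raw counts and the horizontal axis the total counts of the library in M on a log scale, with 1 point per library colored by group. The 5 Mfn1/2DKO points lie above the 6 Ctrl points, and the 2 deep Mfn2KO points (−2.64 and −2.51), right of the dotted line at 40 M, lie above the 3 shallow ones.

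No difference between Mfn1/2DKO and Ctrl passed for the other pairs. The difference in log2 ratio was −0.04 for Timm17a to Timm17b (exact p = 0.584), 0.01 for Dnajc15 to Dnajc19 (exact p = 0.9), 0.09 for Grpel2 to Grpel1 (exact p = 0.318) and −0.07 for Tomm40l to Tomm40 (exact p = 0.29). Grpel2 and Grpel1 thus rose by amounts whose ratio did not pass the test.

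Of 13 further genes of the import pathway that are no members, 4 were higher and 1 was lower in Mfn1/2DKO than in Ctrl. All 13 passed the low-count filter, and in the separate fit of the genes that pass it 18.6% were higher and 16.6% lower. Hspa9, the ATPase that drives the import motor, rose by 0.49 (SE 0.11, adjusted p = 0.00372). It stood at 34977, 39766, 37330.0, 35322 and 31100.0 against 21163 to 30912 (median 24770.0), and its exchange factors Grpel1 and Grpel2 and its tether Timm44 were among the members that rose. Mtx2 (0.22) and Samm50 (0.16), of the machinery that builds β-barrel proteins such as Tomm40 into the outer membrane, were higher, as was the matrix peptidase Mipep (0.19), which trims imported proteins. Romo1, a small inner membrane protein of the import channel, fell by 0.42 (adjusted p = 0.00888), at 1220.1, 1379.7, 1202, 1254 and 981 against 1305 to 1877 (median 1624). Like Tomm7, it was higher in the deep Mfn2KO libraries (1915 and 2040.0) than in the shallow ones (1346, 1468 and 1376). Mtx1, Mtx3, Pmpca, Pmpcb, Immp1l, Immp2l, Mtch1 and Mtch2 did not pass.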

How the data were processed

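Islet RNA was sequenced in 20 libraries. Per the labels' processing notes the authors trimmed reads with cutadapt 2.3, checked them with FastQC 0.11.8, aligned them to GRCm38 with STAR 2.6.1b and estimated counts with RSEM 1.3.1; the strand setting is not given in the sources used here. The deposited table holds expected counts as whole numbers, and 0 of its sample columns were left out. A second deposited table of depth-normalized values was not used here. Groups came from the labels.

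Counts of 28632 genes were fitted with edgeR 4.0.16 in R 4.3.3 (TMM, estimateDisp, glmQLFit and glmQLFTest, all 20 libraries, 1 coefficient per group, no filter), with Benjamini-Hochberg adjustment across the full table within each comparison. Genes were said to change, rise or fall at an adjusted p under 0.05, and the study's fold threshold was 1.5. Depth ran from 12400687 to 122947313 counts. Intervals are 95% t intervals of the fitted log2 fold change. Paralogue ratios were tested by exact permutation of libraries (two-sided). Python 3.11.15 with NumPy 2.4.6, pandas 2.3.3 and Matplotlib 3.10.9 handled tables and figures. The code was tested on simulated data.

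Genes were matched to GENCODE mouse release M21 by Ensembl ID, and overlapping genes and shared 75-base stretches were read from it. The motifs were chosen after the fold changes were known. Full statistics go to members past the threshold with the 12 largest changes, both genes of each paralogue pair and Tomm20; members under filterByExpr are given as counts, and partner genes that pass by their log2 fold change. Tomm7, Chchd4 and others outside that rule were named after their values were seen. The members, lists and tests were chosen with earlier results of these data known. Alternatives comprised DESeq2 1.42.0, other scalings within edgeR (DESeq2 size factors, total counts), a low-count filter (filterByExpr), separate fits of each pair of groups, a covariate for depth class (above 40 M counts), sex, acinar score or replicate number, and leaving out libraries; fits to 1 sex were added after the data were seen. Same-numbered libraries of different groups deviated together with a mean correlation of 0.12 (lowest −0.13), against −0.03 for other pairs. The correlation was over 0.1 in 16 of 27 same-numbered pairs and in 28 of 122 other pairs. Same-numbered libraries were thus somewhat more alike, and the reason was not tested. The labels do not say that the numbers pair the samples, so the main fit did not pair them and the replicate block is given as an alternative.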

Additional observations from a re-analysis of the deposited data

Results flagged for a closer look

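The effect of losing Mfn1 differed with the presence of Mfn2 for Oxa1l, by 0.40 on the log2 scale, and for Tomm34, by 0.43, in a test of the difference itself (edgeR interaction term, adjusted p of 0.0027 and 0.0192). They were 2 of the 33 members tested, near the 5.92% of all genes that passed.

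A single library far from the rest of its group was found in 9 of 148 groups of values, close to the 1 in 20 that chance gives (7.4). Tomm40l was at 1880.0 normalized counts in Mfn1/2DKO replicate 4, against at most 1674 in the others. Dnajc19 was at 1286 in Ctrl replicate 6, against at most 1061. Mfn1KO replicate 3 was low in Tomm7 (877, next 1264) and Timm10 (278, next 404). The log2 ratio of Timm17a to Timm17b was low in Mfn1KO replicate 4 (−0.33) and high in Mfn2KO replicate 5 (0.10). Dnajc15 to Dnajc19 was low in Mfn1/2DKO replicate 5 (−0.48), Grpel2 to Grpel1 in Mfn1KO replicate 2 (−1.34) and Tomm40l to Tomm40 in Ctrl replicate 2 (−0.59).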

How the results depend on the processing

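All 12 members that changed in Mfn1/2DKO against Ctrl kept their direction in every alternative fit run, and 0 of them passed with depth class as a covariate, although the values of 4 (Tomm34, Oxa1l, Timm10b and Timm17a) were no nearer to 0. Counts of higher members (9) were 17 with total-count scaling, which moves the median over all genes from 0.04 to 0.17, 0 with depth class as a covariate, 3 in males, 5 in females and 7 to 11 with 1 library left out. Counts of lower members (3) were 1, 1, 0 and 1 in those settings, 1 without Mfn1/2DKO replicates 4 and 5, and 1 to 3 with 1 library left out, 1 being reached without Mfn1/2DKO replicate 3. The count past 1.5-fold (1) was 0 with DESeq2, acinar score as a covariate or without Mfn1/2DKO replicates 4 and 5, 2 with total-count scaling and 0 to 2 with 1 library left out (0 without Mfn1/2DKO replicate 5, 2 without Ctrl replicate 6). Members changed against Mfn2KO (9) were 16 with total-count scaling, 3 with depth class as a covariate, 3 with libraries above 40 M counts and 5 to 11 with 1 library left out (5 without Mfn2KO replicate 2). The count over all 28632 genes moved too, from 2030 higher and 1689 lower in the main fit. It was 3828 and 886 with total-count scaling, 888 and 795 with depth class, and 947 and 645 with libraries above 40 M counts. Without Mfn2KO replicate 2 it was 1524 and 1285. The interaction count (2) was 6 with DESeq2, 5 with total-count scaling and 1 to 4 with 1 library left out (1 without Mfn1KO replicate 1, 4 without Mfn1KO replicate 3). Over all genes the interaction was called for 826 higher and 868 lower in the main fit. DESeq2 called 1301 and 1550 of 16342 genes with an adjusted p, and total-count scaling gave 1855 and 437. Without Mfn1KO replicate 1 there were 657 and 649, and without replicate 3 there were 703 and 834. Partner genes (5) were 1 with depth class, 3 without Mfn1/2DKO replicates 4 and 5 and 4 to 6 with 1 library left out. The single knockouts gave 0 members in every setting run. In Mfn1/2DKO against Ctrl, DESeq2 called 14 members, the 12 together with Timm17b and Timm8a1. Over all genes it called 2864 higher and 2934 lower of the 19075 with an adjusted p. A call was lost with 1 library left out for Tomm20, Timm17a, Timm50, Grpel1, Timm10b and Timm10, and total-count scaling ended those of Timm17a and Timm10b. Apart from what the settings themselves change, the cause was not tested.

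With the replicate block the counts were 10 higher and 3 lower, and all 12 members kept their call; Timm8a1 then passed (0.58, adjusted p = 0.0418). The Timm8a1 to Timm8b difference under the block was 0.53 (exact p = 0.0625, the smallest that 5 pairs allow), 0.42 without Mfn1/2DKO replicates 4 and 5, 0.37 against deep Mfn2KO libraries, and 0.43 to 0.61 with 1 library left out. With 1 library left out the other ratios ran from −0.09 to 0.00 (Timm17a to Timm17b), −0.03 to 0.04 (Dnajc15 to Dnajc19, −0.01 under the block), 0.04 to 0.14 (Grpel2 to Grpel1) and −0.12 to −0.05 (Tomm40l to Tomm40), none passing after adjustment; against deep Mfn2KO libraries they were −0.12, 0.19 (exact p = 0.0476, adjusted 0.238), 0.01 and −0.10.

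Genes that did not pass changed sign: Tomm40 to 0.12 (total-count scaling), 0.01 (without Mfn1/2DKO replicates 4 and 5), 0.02 (males) and between −0.04 and 0.02 with 1 library left out; Tomm40l to 0.05 and Timm17b to 0.01 (total-count scaling); Dnajc15 to −0.01 (DESeq2), −0.22 (depth class), −0.06 (males) and −0.02 to 0.07; Dnajc19 to −0.02, −0.31, −0.07 and −0.02 to 0.07 in the same settings; Timm8a1 to −0.38 (depth class); and Timm8b to 0.13 (total-count scaling), 0.08 (replicate block), 0.05 (without Mfn1/2DKO replicates 4 and 5), 0.21 (females) and −0.06 to 0.08. The list of sign changes covers only genes of the paralogue pairs. With depth class as a covariate Tomm22 (−0.01), Tomm5 (−0.10), Timm21 (−0.06), Pam16 (−0.07), Timm22 (−0.07), Timm13 (−0.15) and Timmdc1 (−0.05) also turned below 0. With total-count scaling Tomm6 (0.11) and Timm23 (0.12) turned above 0. Depth and the share of β-cell transcripts both differ with genotype in every comparison with Mfn1/2DKO.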
